A study of Sus scrofa with 12 samples.

Results

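The 9 genes described here write, copy, recognise or remove DNA methylation: DNMT1, UHRF1, UHRF2, DNMT3A, DNMT3B, TET1, TET2, TET3 and TDG. They were taken by name from the deposited gene table, in which all 9 had a row among 28965 genes. RNA was measured in oocytes of the pig (Sus scrofa) that had been stripped of their cumulus cells. The oocytes were taken at 0, 12, 28 and 44 h of maturation in vitro, with 3 libraries at each time and 12 in all. The labels give no strain, age or added agent, and leave unsaid whether replicate libraries stem from different animals or cultures. The p-values therefore cover only library-to-library spread, which may be technical. The series title names a medium of defined composition.

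Methyl groups on cytosine, mostly at CpG sites, are laid down by DNMT3A and DNMT3B and copied to the new strand after replication by DNMT1, which UHRF1 brings to hemimethylated sites. TET enzymes oxidise 5-methylcytosine, and TDG can cut out some of the oxidised bases so that base excision repair puts back an unmodified cytosine. A growing oocyte builds its methylation pattern, including that of imprinted genes, and stores RNA for these enzymes. In the mouse the stored TET3 protein acts on the paternal genome after fertilisation.

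Libraries held between 21877235 and 26015373 gene counts, and no 2 of them were identical over all genes. Levels are given as CPM, gene counts scaled to a common library size with TMM factors, with the SD over the 3 libraries of a time. They are shares of a library, so less RNA of other genes and more RNA of 1 gene cannot be told apart. The median log2 fold change over all tested genes was between -0.0070 and 0.0050 in the 6 comparisons of times. Of the 12 libraries, 12 h replicate 5 lay farthest from the others of its time, by a root mean square of 0.201 on the log2 scale over 7883 genes, against 0.134 to 0.196 for the other libraries. The summed level of 11 oocyte markers, among them ZP2, GDF9 and BMP15, lay between 14450 and 16888 CPM at 0 h, 13375 and 14718 at 12 h, 12192 and 12527 at 28 h, and 10374 and 10600 at 44 h. Of these 11, 9 had a lower mean at 44 h than at 0 h, and WEE2 and BTG4 had a higher one. The 19 markers of cumulus and granulosa cells summed to between 273 and 332 CPM at 0 h, 302 and 317 at 12 h, 303 and 329 at 28 h, and 252 and 273 at 44 h, mostly AMH and VCAN. FSHR, the defining receptor of granulosa cells, had 0 counts in all 12 libraries, and AREG had at most 4. INHBA had 22 to 230 counts in a library, and PTGS2 averaged 1.71 CPM at 44 h and 0.119 CPM at 0 h. Of the 19, 12 had a higher and 5 a lower mean at 44 h than at 0 h, and their part in the results was not tested.

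The 9 genes together took 3.37 to 4.72% of all counts, and the 8 without DNMT1 took 0.494 to 0.556%. Over the 4 times, 4 of the 9 passed the test for any change, where 13.1% of all 12977 tested genes did (edgeR quasi-likelihood test, Benjamini-Hochberg adjusted p under 0.05). These 4 were TET3 (adjusted p = 0.00116), UHRF1 (0.00137), DNMT1 (0.00869) and UHRF2 (0.0430). The call of UHRF2 was lost in 6 of the 12 fits that left out 1 library (without replicate 2 of 0 h, replicate 5 of 12 h, replicate 2 of 28 h or any 44 h library, edgeR adjusted p 0.0680 to 0.131) and without a filter on low counts (0.0546). All 9 genes passed the filter on low counts. Pairwise, 8 of the 54 combinations of gene and comparison were called, where 6.26% of all such combinations over the tested genes were. The called folds ran from 1.13 to 1.35 in either direction. The plot of levels by library shows that TET3 and UHRF1 ended maturation higher and UHRF2 lower than at 0 h, while DNMT1 had its highest mean at 12 h.

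**Figure D1:**
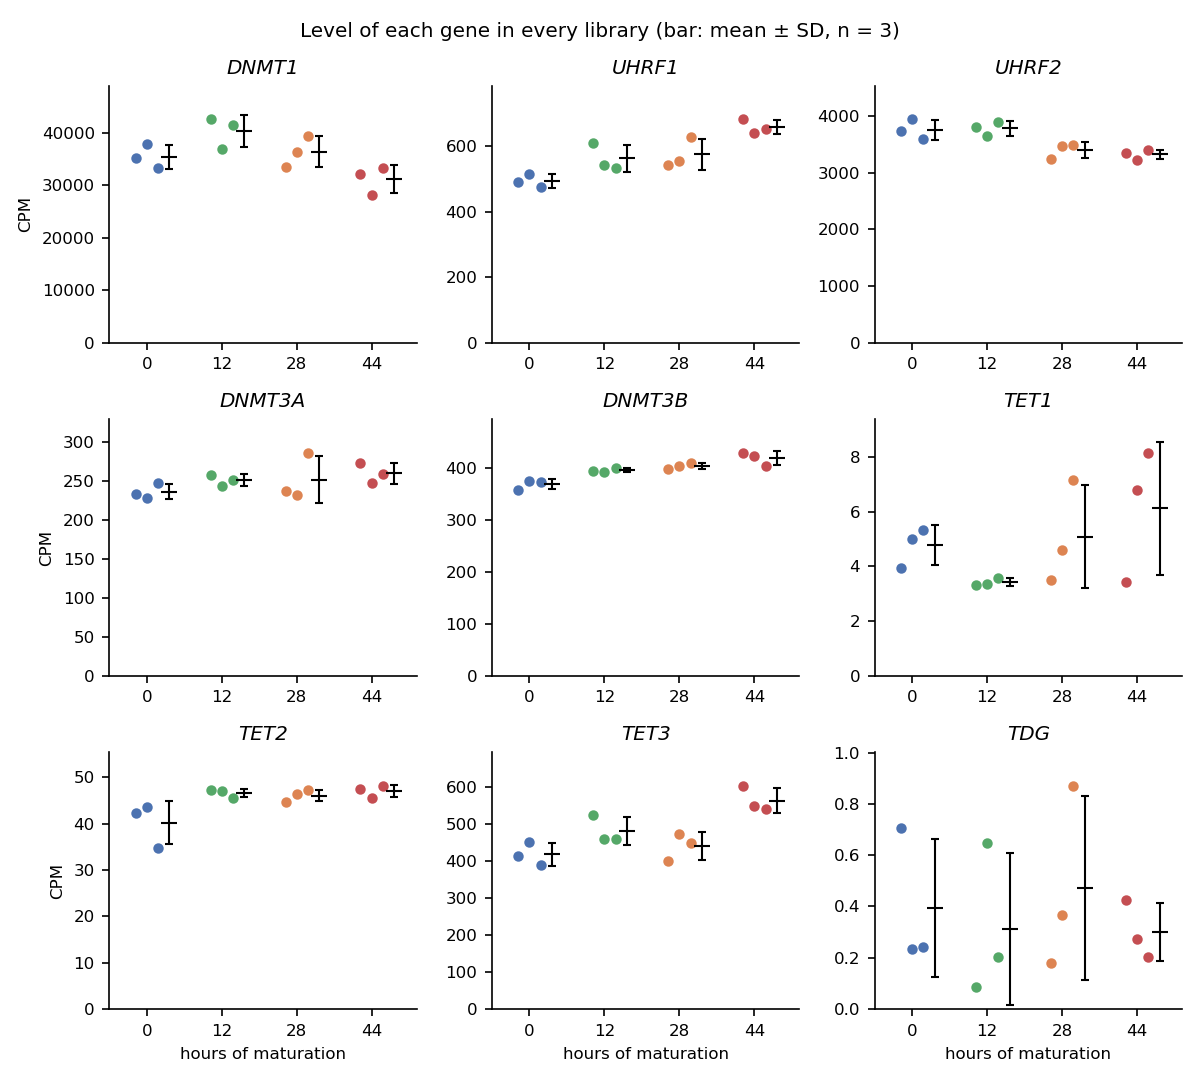
Level of each of the 9 genes in CPM, on axes that start at 0, against hours of maturation. Points are the 12 libraries, and the bar beside each group is the mean with its SD (n = 3). The 3 libraries of 44 h lie above all other libraries for UHRF1 (641 to 682 CPM) and for TET3 (540.0 to 603 CPM).

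Levels of different genes were compared per length, as deposited RPKM (read counts divided by gene model length and library size). DNMT1 had the highest RPKM of all 28965 genes in all 12 libraries, at 2.47 to 4.09 times the second gene, which was H1-8, a linker histone of oocytes, in 7 of the 12. At 0 h its mean was 4784 RPKM, which was 13.3 times that of UHRF2 at 359 RPKM. UHRF1 followed at 91.0 RPKM, DNMT3B at 34.0, DNMT3A at 32.1 and TET3 at 27.7 RPKM. TET2 (3.87 RPKM), TET1 (0.407 RPKM) and TDG (0.0688 RPKM) came last. The ranges of DNMT3B and DNMT3A overlapped, and all other neighbours in this order at 0 h were separate in all libraries.

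The order stayed the same at 12 and 28 h, with overlap between DNMT3A and TET3 at 12 h and between DNMT3B and DNMT3A at 28 h. At 44 h TET3, with a mean of 37.3 RPKM, stood between DNMT3B at 38.6 RPKM and DNMT3A at 35.3 RPKM, with ranges that overlapped both. Among all 28965 genes, UHRF2 ranked between 34 and 42, UHRF1 between 187 and 336, and TDG between 12094 and 14446. The ranks of DNMT3A, DNMT3B and TET3 lay between 1070 and 1819. TET2 ranked between 5949 and 6894 and TET1 between 9793 and 11227.

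**Figure D2:**
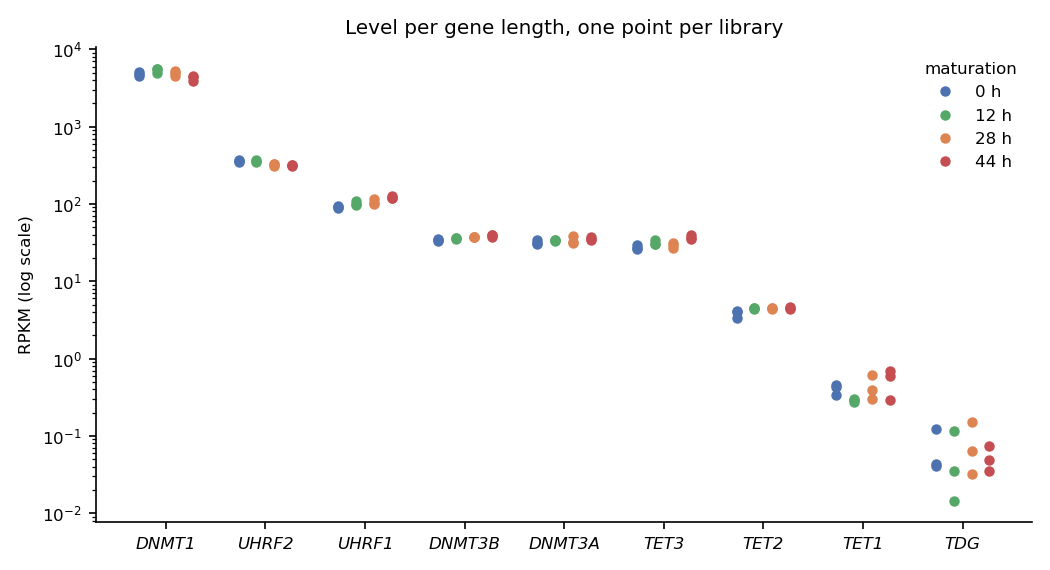
Deposited RPKM of the 9 genes on a log axis, 1 point per library, coloured by hours of maturation and ordered by mean level. DNMT1 stands at 3859 RPKM or more and TDG at 0.152 RPKM or less in all 12 libraries, while DNMT3A, DNMT3B and TET3 lie close together.

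DNMT1 copies existing methylation and, in the mouse, is made in oocytes from a start site of its own as a shorter protein. The pig gene (ENSSSCG00000013659) lies on the minus strand of chromosome 2, from 68981564 to 69029919 in Sscrofa11.1, and the RefSeq model reaches 10445 bases farther upstream. It took 2.85 to 4.17% of the counts of a library. Its level was 35167, 37857 and 33286 CPM at 0 h, 42595, 36919 and 41541 CPM at 12 h, 33566, 36376 and 39456 CPM at 28 h, and 32173, 28207 and 33409 CPM at 44 h. All 44 h libraries lay below all 12 h and all 28 h libraries, while the 44 h and 0 h ranges overlapped.

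DNMT1 RNA fell 1.29-fold at 44 h against 12 h (31263 ± 2718 CPM at 44 h, 40352 ± 3019 CPM at 12 h, log2 fold change -0.37, SE 0.07, edgeR adjusted p = 0.00148). It was called in each fit that left out 1 library, with an adjusted p of at most 0.0208, and at 0.0101 without 12 h replicate 5. Against 28 h, the 44 h libraries had a log2 fold change of -0.22 (adjusted p = 0.0984 in edgeR), and against 0 h one of -0.18 (adjusted p = 0.0901 in edgeR), both short of the threshold. Scaling by library totals alone brought both under it, at 0.0419 for 28 h and 0.0294 for 0 h. The change against 28 h was also called without a filter on low counts (edgeR adjusted p = 0.0454) and in a fit of only those 2 times (0.0449). Among the fits that left out 1 library, it was called only without 28 h replicate 2 (0.0479), and the others reached up to 0.433. At 12 h against 0 h DNMT1 stood at a log2 fold change of 0.19 (95% interval 0.03 to 0.34, edgeR adjusted p = 0.344). The call for any change over the 4 times was lost without 44 h replicate 2, the library lowest in DNMT1 (edgeR adjusted p = 0.0673).

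UHRF1 binds hemimethylated CpG sites and recruits DNMT1. Its gene (ENSSSCG00000013517) spans 73898085 to 73935682 on the minus strand of chromosome 2. UHRF1 stood at 491, 516 and 475 CPM at 0 h, at 612, 543 and 535 CPM at 12 h, at 542, 556 and 629 CPM at 28 h, and at 682, 641 and 654 CPM at 44 h. All 12 h, 28 h and 44 h libraries were above all 0 h libraries, and all 44 h libraries were above those of every earlier time. UHRF1 overlaps ARRDC5 on the opposite strand, which had 0 to 7 counts in a library, against at least 11732 for UHRF1.

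UHRF1 RNA rose 1.33-fold at 44 h against 0 h, to 659 ± 21.2 CPM at 44 h, against 494 ± 21.0 CPM at 0 h (log2 fold change 0.42, SE 0.07, edgeR adjusted p = 0.00012). That call held in all 12 fits that left out 1 library (edgeR adjusted p at most 0.00176) and under the 8 other settings. A rise of 1.17-fold at 44 h against 12 h also passed (edgeR adjusted p = 0.0387). This smaller rise was lost in 6 of the 12 fits that left out 1 library (without 12 h replicate 3 or 5, 28 h replicate 3, or any 44 h library, edgeR adjusted p 0.0562 to 0.161). The value for 44 h against 28 h was 0.19 on the log2 scale and did not pass (edgeR adjusted p = 0.129). At 12 h and at 28 h against 0 h it was 0.19 and 0.22 (edgeR adjusted p = 0.313 and 0.0969).

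UHRF2, the close relative of UHRF1, shares its domains, and in mouse cells it does not replace UHRF1 in maintaining methylation. It lies on the minus strand of chromosome 1 from 215730222 to 215807628 (ENSSSCG00000005201). The libraries held 3739, 3945 and 3598 CPM at 0 h, 3817, 3647 and 3902 CPM at 12 h, 3238, 3468 and 3490.0 CPM at 28 h, and 3348, 3235 and 3401 CPM at 44 h. Every library of 28 h and 44 h was below every library of 0 h and 12 h.

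The RNA of UHRF2 fell 1.13-fold at 44 h against 0 h (3328 ± 85.0 CPM at 44 h, 3761 ± 174 CPM at 0 h, log2 fold change -0.18, SE 0.06, edgeR adjusted p = 0.0349) and 1.14-fold at 44 h against 12 h (edgeR adjusted p = 0.0430). Both calls were close to the threshold. The first was lost without 0 h replicate 2 or 3 or any 44 h library (edgeR adjusted p 0.0502 to 0.124). The second was lost without replicate 2 of 0 h, replicate 1 or 5 of 12 h, or any 44 h library (edgeR adjusted p 0.0591 to 0.175), and with RLE size factors (0.0505). Without a filter on low counts both were lost too (0.0532 and 0.0666). At 28 h against 12 h UHRF2 had a log2 fold change of -0.16 (edgeR adjusted p = 0.558), although the ranges did not overlap.

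DNMT3A and DNMT3B set new methylation, and in the mouse DNMT3A, with its partner DNMT3L, does so in growing oocytes. DNMT3A (ENSSSCG00000029413) is on the plus strand of chromosome 3, 113528926 to 113609139, and DNMT3B (ENSSSCG00000007252) on the plus strand of chromosome 17, 36332801 to 36386074. The RefSeq models start elsewhere, 26954 bases farther upstream for DNMT3A and 12914 bases farther downstream for DNMT3B. DNMT3A had 233, 228 and 247 CPM at 0 h, 258, 243 and 251 CPM at 12 h, 237, 232 and 286 CPM at 28 h, and 273, 247 and 259 CPM at 44 h. These ranges overlapped in all 6 comparisons, and DNMT3A was not called in any, with a log2 fold change of 0.14 at 44 h against 0 h (95% interval -0.02 to 0.29, edgeR adjusted p = 0.214).

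DNMT3B varied little within a time. It had 357, 376 and 374 CPM at 0 h, 395, 393 and 399 CPM at 12 h, 398, 403 and 409.8 CPM at 28 h, and 429, 423 and 403 CPM at 44 h. All later libraries were above all 0 h libraries. DNMT3B RNA rose 1.13-fold at 44 h against 0 h (418 ± 13.5 CPM at 44 h, 369 ± 10.1 CPM at 0 h, log2 fold change 0.18, SE 0.06, edgeR adjusted p = 0.0282). This call was lost without replicate 2 of 0 h, or replicate 1 or 2 of 44 h (edgeR adjusted p 0.0896 to 0.129). It was also lost without a filter on low counts (0.0632) and in a fit of only those 6 libraries (0.0629). DNMT3L had 0 counts over the 12 libraries, where a count of 0 allows up to 3, so the ratio of DNMT3L to DNMT3A could not be followed.

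TET3 oxidises 5-methylcytosine and is the TET enzyme with the most RNA in these libraries. Its gene (ENSSSCG00000008292) lies on the minus strand of chromosome 3 from 68918933 to 69020986. TET3 was found at 413, 452 and 389 CPM at 0 h, 524, 459 and 459.5 CPM at 12 h, 399.7, 473 and 450.0 CPM at 28 h, and 603, 548 and 540.0 CPM at 44 h. The 44 h libraries lay above all 9 earlier libraries, and those of 0 h and 28 h overlapped.

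TET3 RNA rose 1.35-fold at 44 h against 0 h, with 564 ± 34.4 CPM at 44 h and 418 ± 31.9 CPM at 0 h (log2 fold change 0.43, SE 0.08, edgeR adjusted p = 0.000238). In the last step, 44 h against 28 h, it rose 1.28-fold (564 ± 34.4 CPM at 44 h, 441 ± 37.3 CPM at 28 h, log2 fold change 0.35, SE 0.08, edgeR adjusted p = 0.00454). At 28 h against 0 h the log2 fold change was 0.08 (95% interval -0.08 to 0.23, edgeR adjusted p = 0.741). The rise against 0 h was called in all 12 fits that left out 1 library (edgeR adjusted p at most 0.00388), and the rise against 28 h was lost in 1 of them, without 28 h replicate 2 (0.0520). TET3 was also 1.17-fold higher at 44 h against 12 h, but just missed the threshold (edgeR adjusted p = 0.0583), which it passed in 6 of the 8 other settings (0.0294 to 0.0480).

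TET2 and TET1 belong to the same family of dioxygenases. TET2 (ENSSSCG00000009157, minus strand of chromosome 8, 116415267 to 116545299) had 42.2, 43.6 and 34.8 CPM at 0 h, 47.2, 47.0 and 45.6 CPM at 12 h, 44.7, 46.3 and 47.1 CPM at 28 h, and 47.4, 45.5 and 48.1 CPM at 44 h. All 0 h libraries were below all later ones, and 0 h replicate 4 was the lowest. TET2 had a log2 fold change of 0.23 at 44 h against 0 h (SE 0.09, edgeR adjusted p = 0.0804). It was called in DESeq2 (adjusted p = 0.0430) and in 1 of the 12 fits that left out 1 library, without 0 h replicate 3 (edgeR adjusted p = 0.0373). The other such fits reached up to 0.370 in edgeR, and the authors' deposited table gives an FDR p of 0.141.

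TET1 (ENSSSCG00000010241, plus strand of chromosome 14, 71675671 to 71815621) had 78 to 201 counts in a library. It stood at 3.94, 5.01 and 5.34 CPM at 0 h, 3.33, 3.37 and 3.59 CPM at 12 h, 3.51, 4.58 and 7.17 CPM at 28 h, and 3.43, 6.79 and 8.15 CPM at 44 h. The 44 h libraries spanned nearly the whole range of the 12 libraries, and 44 h replicate 1, at 3.43 CPM, was inside the 12 h range. TET1 had a log2 fold change of 0.83 at 44 h against 12 h (SE 0.28, 95% interval 0.26 to 1.41, edgeR adjusted p = 0.0609), and the authors' deposited table gives an FDR p of 0.0407 for it. In edgeR it was called in 3 of the 12 fits that left out 1 library. These were without 28 h replicate 2 or 4 or 44 h replicate 1 (edgeR adjusted p 0.00599 to 0.0486). The other such fits reached up to 0.272 in edgeR, and 2 of the 8 other settings called it.

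TDG removes some oxidised forms of 5-methylcytosine from DNA as a glycosylase. The gene (ENSSSCG00000000847, minus strand of chromosome 5, 80473233 to 80492287) had 17, 6 and 6 counts at 0 h, 2, 15 and 5 at 12 h, 4, 9 and 21 at 28 h, and 11, 7 and 5 at 44 h. Those counts are 0.0842 to 0.870 CPM, and the exact Poisson 95% interval of a single count ran from 9.90 to 27.2 for the 17 and from 0.242 to 7.22 for the 2, covering counting error only. The 95% interval of the log2 fold change at 44 h against 0 h was -1.93 to 1.17. A change of a size seen in the other 8 genes was therefore not detectable with these counts and their spread between libraries. GLT8D2 overlaps TDG on the opposite strand with 936 to 1297 counts, and whether the authors' counting used strand is not given in the sources used here.

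Other DNA glycosylases had more RNA than TDG per length. NEIL3, which acts on oxidised bases, averaged 74.2 RPKM at 44 h and 65.9 RPKM at 0 h. UNG, which removes uracil, averaged 30.3 RPKM at 0 h, 31.0 RPKM at 12 h, 32.4 RPKM at 28 h and 38.5 RPKM at 44 h. MBD4, a glycosylase for mismatched thymine that also reads methylated CpG, averaged 4.28 RPKM at 44 h and 4.40 RPKM at 0 h, and SMUG1 1.72 RPKM at 44 h and 1.39 RPKM at 0 h.

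The comparison of 12 h with 0 h asks what changes in the first hours of maturation. None of the 9 genes was called, where 0.208% of all tested genes were. DESeq2 and limma-voom also called 0 (0.555% and 0.162% of all genes they tested). DNMT1, UHRF1, TET2 and TET3 had an unadjusted edgeR p under 0.05, each higher at 12 h by 0.19 to 0.21 on the log2 scale, where 11.3% of all tested genes had such a p. For UHRF1, DNMT3B, TET1, TET2 and TET3 the ranges did not overlap, where 13.4% of all tested genes had separate ranges. Of these, TET1 was lower at 12 h (mean 3.43 CPM at 12 h, 4.76 CPM at 0 h) and the others were higher. At 28 h against 12 h none was called either (background 0.262%), with 0 in DESeq2 and limma-voom (background 0.532% and 0.223%). UHRF2 alone had an unadjusted edgeR p under 0.05 (6.25% of all tested genes) and separate ranges (11.5%).

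In the last step, 44 h against 28 h, 1 of the 9 was called, TET3, where 4.69% of all tested genes were called and 0.393% rose. Separate ranges were found for DNMT1, UHRF1 and TET3, against 23.1% of all tested genes. UHRF1 is called in this step in the authors' deposited table (FDR p = 0.0373). In edgeR it was called in 1 of the 12 fits that left out 1 library, without 28 h replicate 4 (adjusted p = 0.0381). The other such fits reached up to 0.447 in edgeR, and 1 of the 8 other settings called it. At 28 h, replicate 4 was the highest library for 8 of the 9 genes and replicate 2 the lowest for 8 of the 9. Each was the highest or lowest of its time for 35.4% and 34.2% of all tested genes.

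Over the whole of maturation, 44 h against 0 h, 4 of the 9 were called, where 19.9% of all tested genes were. UHRF1, TET3 and DNMT3B rose, against a background of 8.3% that rose, and UHRF2 fell, against 11.6% that fell. The ranges of 5 genes, those 4 and TET2, did not overlap, where 33.5% of all tested genes had separate ranges. The authors' deposited table calls the same 4 genes here. The median fold of the 2581 genes called in this comparison was 1.32 in either direction, against 1.33 for UHRF1, 1.35 for TET3 and 1.13 for DNMT3B and UHRF2. The median log2 fold change of the 9 was 0.18, and that of all tested genes was -0.0047.

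At 28 h against 0 h none of the 9 was called (background 2.66%), and UHRF1, UHRF2, DNMT3B and TET2 had an unadjusted edgeR p under 0.05, as did 13.6% of all tested genes. DESeq2 and limma-voom called 0 as well (4.34% and 2.58% of all genes they tested). The ranges of those 4 genes were also separate, where 18.7% of all tested genes had separate ranges. Against 12 h, 3 of the 9 were called at 44 h, where 9.86% of all tested genes were: DNMT1 and UHRF2 lower (7.37% of all tested genes) and UHRF1 higher (2.5%). DNMT1, DNMT3B, UHRF1, UHRF2 and TET3 had separate ranges there, and so did 26.5% of all tested genes. The authors' deposited table calls DNMT1 and TET1 in this comparison. Without 12 h replicate 5 only DNMT1 was called, where 6.67% of all tested genes were. DESeq2 called 5 of the 9, and 12.6% of all genes it tested. These comparisons share libraries (each time enters 3 of the 6), so their calls are not independent of each other.

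**Figure D3:**
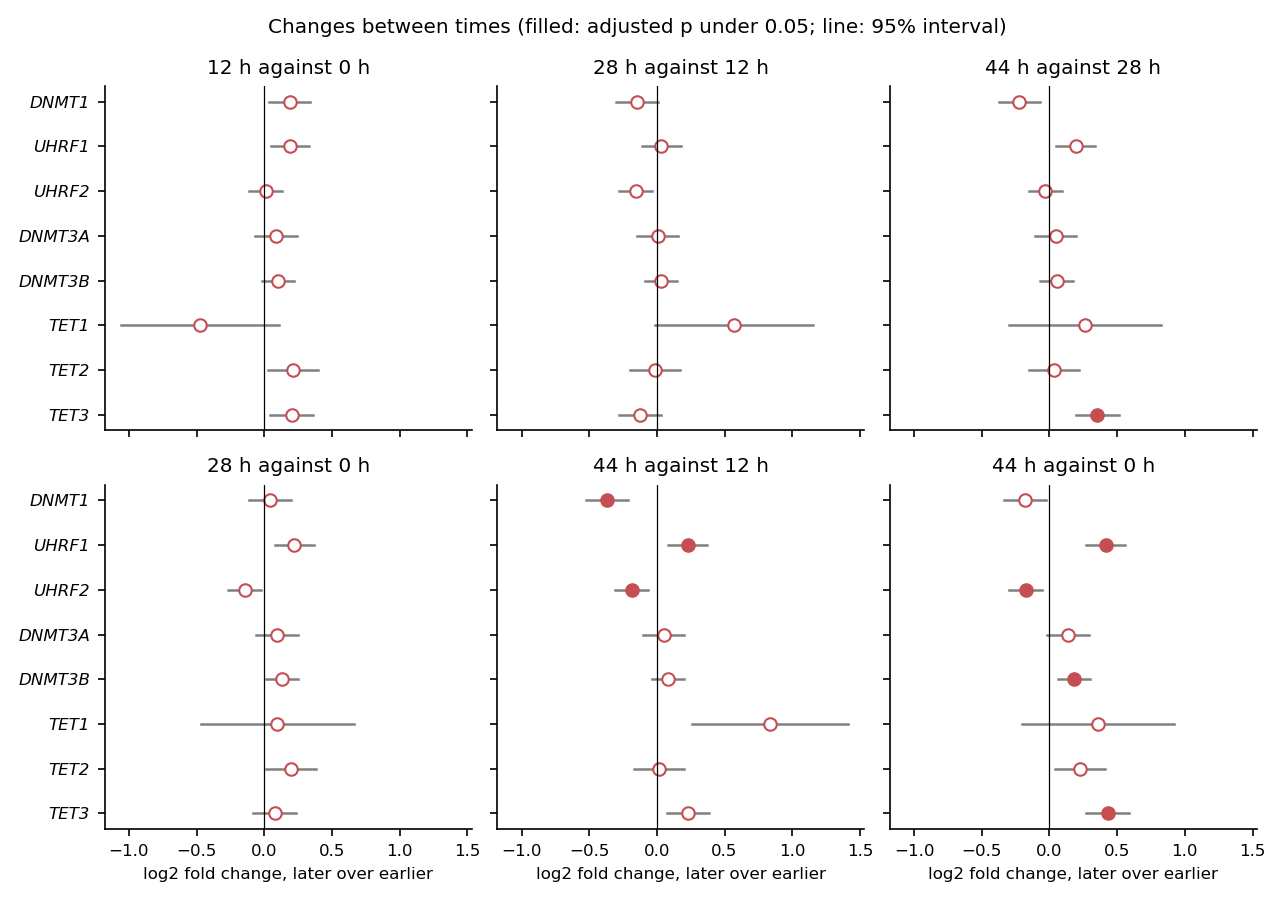
Log2 fold change, later over earlier time, of 8 genes in the 6 comparisons, with 95% intervals; filled points passed an edgeR adjusted p of 0.05. TDG, whose intervals span more than 2 units, is left out. Filled points are TET3 at 44 h against 28 h, DNMT1, UHRF1 and UHRF2 at 44 h against 12 h, and UHRF1, UHRF2, DNMT3B and TET3 at 44 h against 0 h.

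Ratios of 2 genes within a library, taken from RPKM, do not depend on how libraries were scaled. TET3 over DNMT1 averaged 0.578% at 0 h, 0.585% at 12 h and 0.593% at 28 h, then 0.888% at 44 h. The 44 h libraries, at 0.919, 0.952 and 0.792%, were above all earlier libraries, which lay between 0.542 and 0.637%. UHRF1 over DNMT1 averaged 1.90% at 0 h, 1.91% at 12 h and 2.16% at 28 h, then 2.89% at 44 h. UHRF2 over UHRF1, a ratio chosen after the values were seen, averaged 3.95 at 0 h, 3.50 at 12 h and 3.07 at 28 h, then 2.62 at 44 h, and its ranges at the 4 times did not overlap. The closest libraries of 2 times were 28 h replicate 3 at 3.23 and 12 h replicate 1 at 3.24.

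TET3 over the sum of TET1 and TET2 averaged 6.48 at 0 h, 6.66 at 12 h and 5.99 at 28 h, then 7.41 at 44 h. The spread at 44 h was 6.71 to 8.21, which overlapped 0 h and 12 h. DNMT3A over DNMT3B was 0.945 ± 0.0424 at 0 h, 0.936 ± 0.0264 at 12 h and 0.921 ± 0.0973 at 28 h, then 0.917 ± 0.0480 at 44 h, differences smaller than the spread within a time. These ratios were not tested.

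**Figure D4:**
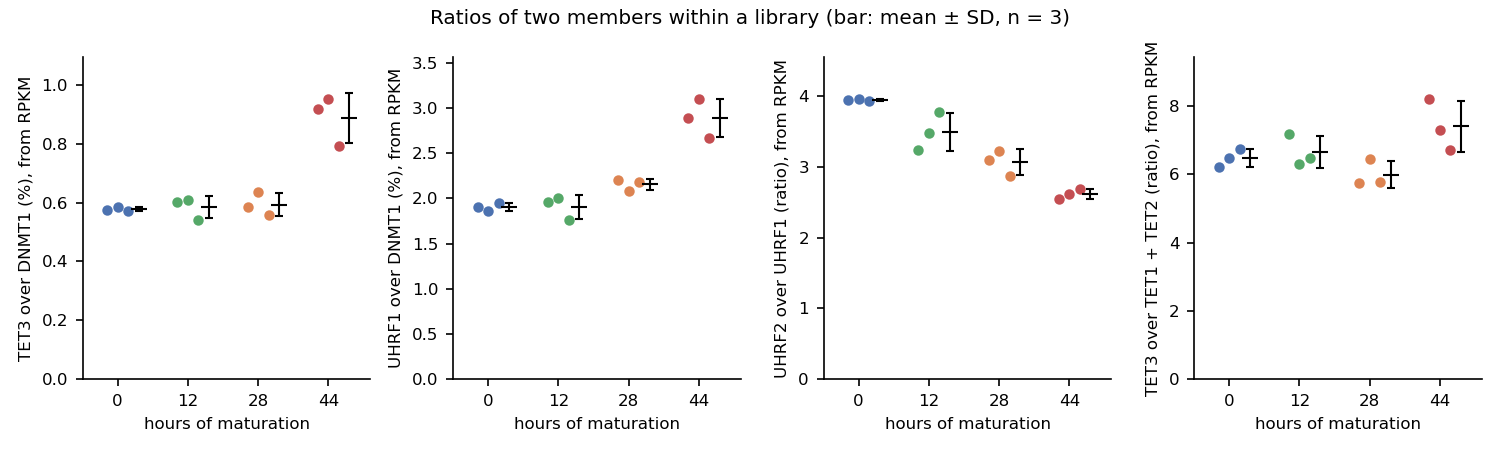
Ratios of RPKM between genes of the set within each library, against hours of maturation, with mean and SD (n = 3), on axes that start at 0. TET3 over DNMT1 and UHRF1 over DNMT1 are highest in the 44 h libraries, and UHRF2 over UHRF1 is lowest there.

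For each of the 4 genes that passed the test for any change, the 3 tested genes most like it were found by the root mean square difference of log2 CPM over the 12 libraries, after taking off each gene's own mean, among 7395 genes with a mean of at least 10 CPM. UHRF1 was most like NHSL1, ERC1 and ZC3H4 (differences of 0.03 to 0.04 on the log2 scale). TET3 was most like TRIO, AKAP11 and GOLGA3 (0.06 each). DNMT1 was most like PDZK1, MED13L and RLIM (0.05 to 0.06), and UHRF2 was most like FANCI, CNOT1 and CLTC (0.03 to 0.05). TRIO, for example, averaged 83.5 CPM at 0 h, 97.8 CPM at 12 h, 93.1 CPM at 28 h and 112 CPM at 44 h. PDZK1 averaged 492 CPM at 0 h, 547 CPM at 12 h, 490.0 CPM at 28 h and 444 CPM at 44 h. For scale, the root mean square of log2 CPM about a gene's own mean was 0.161 for DNMT1, 0.164 for UHRF1, 0.0950 for UHRF2 and 0.186 for TET3. FANCI, CNOT1, CLTC and RLIM did not themselves pass the test for any change (edgeR adjusted p 0.0603 to 0.246).

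Of 99 further genes of the pathway, in 5 lists, 92 had a row and 85 were tested. Over the whole of maturation, 13 of them rose and 7 fell, which is 23.5% of the 85. Of all tested genes 19.9% were called, with 8.3% that rose and 11.6% that fell. Against 12 h, 7 were higher and 4 lower at 44 h (12.9%), and at 44 h against 28 h, 1 rose and 3 fell (4.71%). At 28 h against 0 h, 1 rose and 1 fell (2.35%), and neither of the other comparisons had a call by edgeR.

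Among 22 partners and guides of the methyltransferases, 6 rose and 2 fell at 44 h against 0 h, with a median log2 fold change over the list of 0.11. NSD1, NSD2 and NSD3, which set the H3K36 methylation that the DNMT3 enzymes read, rose together by 1.21 to 1.23-fold. NSD3 averaged 385 ± 27.1 CPM at 44 h and 314 ± 15.7 CPM at 0 h (edgeR adjusted p = 0.00331), and NSD2 averaged 409.6 ± 18.6 CPM at 44 h and 339 ± 12.5 CPM at 0 h (edgeR adjusted p = 0.00573). The call of NSD1 was lost without 0 h replicate 4 (edgeR adjusted p = 0.0548).

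DMAP1, which binds DNMT1, fell 2.06-fold, with 28.5 ± 2.06 CPM at 44 h and 58.7 ± 8.47 CPM at 0 h (edgeR adjusted p = 2.45e-07). It also fell at 44 h against 28 h (edgeR adjusted p = 0.000932). LIG1, the ligase of replication that UHRF1 can bind, fell 1.42-fold, with 96.7 ± 7.89 CPM at 44 h and 137 ± 21.2 CPM at 0 h (edgeR adjusted p = 0.00145). HELLS, a remodeller needed for methylation, had a log2 fold change of 0.03 (edgeR adjusted p = 0.881).

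Of 9 readers of methylated DNA, 3 rose and 1 fell (median 0.24). MBD5 rose 1.44-fold, with 35.6 ± 1.05 CPM at 44 h and 24.7 ± 3.20 CPM at 0 h (edgeR adjusted p = 0.00128). ZBTB33, a zinc finger protein that binds methylated DNA, rose 1.22-fold, to 482 ± 16.9 CPM at 44 h, against 396 ± 12.8 CPM at 0 h (edgeR adjusted p = 0.00181). MBD6 rose 1.32-fold (edgeR adjusted p = 0.00685), a call lost without 0 h replicate 2 (0.0675). MBD5 and MBD6 carry the family's domain, but their human proteins do not bind methylated DNA.

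Among 17 genes of base excision repair and deamination, 1 rose and 2 fell (median 0.08). UNG rose 1.27-fold, with 125 ± 7.99 CPM at 44 h and 98.4 ± 2.01 CPM at 0 h (edgeR adjusted p = 0.00315). APEX1, the endonuclease that acts after a glycosylase, fell 1.24-fold (edgeR adjusted p = 0.0427), and 7 of the 12 fits that left out 1 library lost this call, without any 0 h or 44 h library or 28 h replicate 4 (up to 0.170). DESeq2 called 6 genes of this list, and 22.6% of all genes it tested.

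Of 20 cofactor and regulator genes of the TET enzymes, 3 rose and 1 fell (median 0.10). IDH3B, a subunit of the isocitrate dehydrogenase that makes the TET cofactor 2-oxoglutarate in mitochondria, fell 1.80-fold, with 12.8 ± 1.31 CPM at 44 h and 23.0 ± 1.11 CPM at 0 h (edgeR adjusted p = 6.28e-06). CXXC4, which in the mouse binds TET2 and lowers its protein, rose 1.80-fold, with 4.82 ± 0.343 CPM at 44 h and 2.67 ± 0.177 CPM at 0 h (edgeR adjusted p = 0.00473). DDB1 and CUL4B, parts of the ubiquitin ligase that modifies TET proteins, rose 1.17-fold and 1.22-fold (edgeR adjusted p = 0.0151 and 0.0126). The call of DDB1 was lost without 0 h replicate 2 or 44 h replicate 1, and that of CUL4B without 0 h replicate 2 or 4 or 44 h replicate 4 (up to 0.0931 and 0.0991).

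Of 17 enzymes of S-adenosylmethionine and one-carbon metabolism, which supply the methyl group, 0 rose and 1 fell at 44 h against 0 h (median -0.04). MTHFD1, a folate enzyme, fell 1.24-fold, with 41.2 ± 2.40 CPM at 44 h and 50.9 ± 1.67 CPM at 0 h (edgeR adjusted p = 0.0185), and the call was lost without 0 h replicate 4 or 44 h replicate 1 or 4 (up to 0.0879). In the comparison of 44 h with 12 h, 3 genes of this list rose, MAT2A, MAT2B and SHMT1, named here after their values were seen. MAT2A, which makes S-adenosylmethionine, averaged 189 CPM at 0 h, 168 CPM at 12 h, 187 CPM at 28 h and 197 CPM at 44 h (edgeR adjusted p = 0.0146 for 44 h against 12 h).

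**Figure D5:**
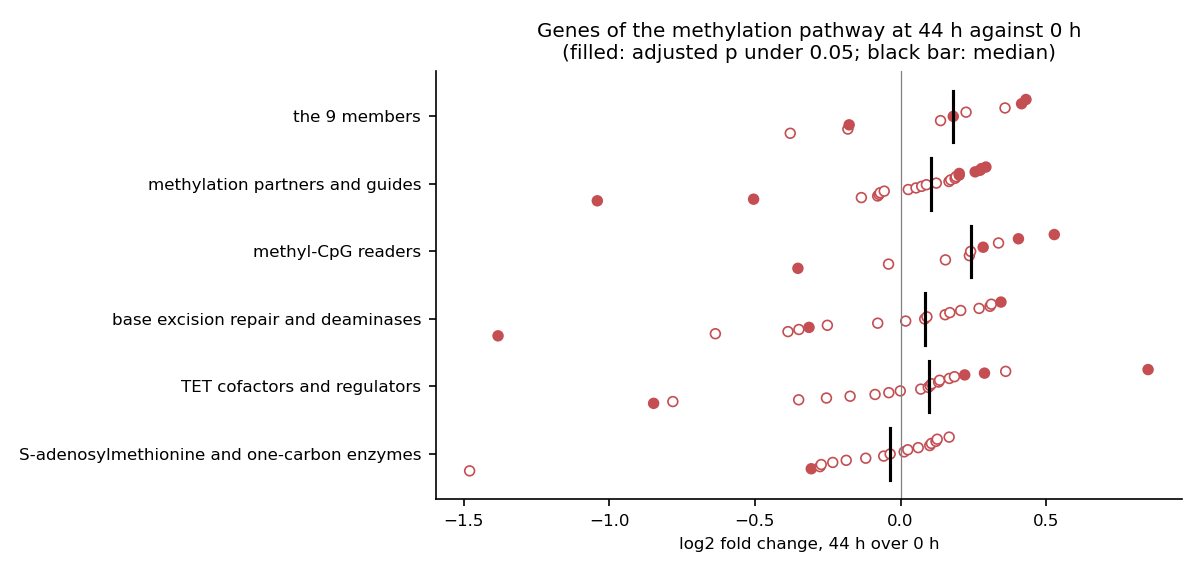
Log2 fold change at 44 h over 0 h of the 9 genes and of the tested genes of 5 pathway lists, 1 point per gene; filled points passed an edgeR adjusted p of 0.05, and the black bar is the median of a row. DMAP1 is the filled point at -1.04, and CXXC4 is the filled point farthest to the right, at 0.85.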

How the data were processed

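Per the labels, RNA of denuded oocytes was isolated with an AllPrep micro kit, made into strand-specific total RNA libraries with a SMARTer Pico kit and sequenced as read pairs on a NovaSeq. The submitters' processing notes name the build Sscrofa11.1 and DESeq2. The aligner, the handling of reads that match several genes and the use of strand are not given in the sources used here. Per the file headers, the authors deposited whole-number total counts per gene and library, which were tested here, and RPKM values, used to compare genes; 24 further per-library columns (TPM and CPM) were not used. Log2 fold changes and FDR p-values are the authors' own where their table is named.

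Counts were analysed with edgeR 4.0.16 (R 4.3.3): filterByExpr with a minimum count of 10, TMM scaling, a robust quasi-likelihood fit of all 12 libraries, and Benjamini-Hochberg adjustment over 12977 genes. SE and 95% intervals come from that fit. Totals of 21877235 to 26015373 counts and a biological coefficient of variation of 10.6% set the precision. The scripts were tested on simulated data. The 9 genes and the 5 lists were chosen with earlier results of these data known. Named beside the 9 were, per list, up to 3 genes that rose and 3 that fell at 44 h against 0 h by smallest adjusted p, and the 3 genes most like each changing member; others named (HELLS, the glycosylases, MAT2A and markers) stand outside this rule and were picked after values were seen. Alternatives were RLE factors, library totals alone, library sizes without DNMT1, no filter, DESeq2 1.42.0, limma-voom (limma 3.58.1), 1 library left out at a time, a replicate block, and a fit restricted to 2 times. Listed genes with no row, such as DPPA3 and ZFP57, were not analysed here. Some genes that the naming rule picks are not reported here.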

Additional observations from a re-analysis of the deposited data

How the results depend on the processing

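No member was called at 12 h against 0 h, 28 h against 12 h or 28 h against 0 h under any alternative run. At 44 h against 28 h the count of 1 became 2 with library totals alone or no filter on low counts and 3 in a fit of only the 2 times, and leaving out a library gave 1 to 2. At 44 h against 0 h the count of 4 became 2 with no filter, and leaving out a library gave 2 to 4 (2 when replicate 2 of 0 h, or replicate 1 or 2 of 44 h, was out). In that comparison DNMT1 was gained with library totals alone and TET2 in DESeq2, and DNMT3B was lost in a fit of only the 2 times. At 44 h against 12 h the count of 3 became 5 in DESeq2, and leaving out a library gave 1 to 5 (1 when replicate 5 of 12 h, or replicate 2 or 4 of 44 h, was out, and 5 without 28 h replicate 2). TET3 was also called in that comparison with library totals alone, no filter, limma-voom and a fit of only the 2 times. UHRF2 was lost there with RLE factors and with no filter, and TET1 was gained with no filter. For any change over the 4 times, leaving out a library gave 2 to 4 (2 without 44 h replicate 2). The share of all tested genes called moved too. Leaving out a library gave 2.98 to 5.47% at 44 h against 28 h, 12.9 to 21.7% at 44 h against 0 h, 6.35 to 11.3% at 44 h against 12 h and 8.26 to 16.4% for any change. No filter gave 3.81% at 44 h against 28 h and 14.1% at 44 h against 0 h. Library totals alone gave 4.87% and a fit of only the 2 times 7.81% at 44 h against 28 h, and DESeq2 gave 12.6% at 44 h against 12 h. The other settings named for 44 h against 12 h gave 7.4 to 10%. At 44 h against 0 h library totals alone gave 19.2%, DESeq2 22.6% and a fit of only the 2 times 18.8%. For any change DESeq2 gave 17.7% and no filter 11%. The cause of these differences was not tested. The calls of DNMT1 at 44 h against 12 h and of UHRF1 and TET3 at 44 h against 0 h held under every alternative run.

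Same-numbered libraries correlated at -0.0061 to 0.127 in their deviations from the means of their times. No values for differently numbered libraries stand beside these, so they do not settle whether the numbers pair the libraries. The main fit did not use the replicate numbers. With a replicate block, 2 members were called for any change (10.8% of all tested genes), without UHRF2 (edgeR adjusted p = 0.183) and DNMT1 (0.0504). At 44 h against 0 h 3 were called (17.7%), without UHRF2 (0.0656) and DNMT3B (0.0747) and with DNMT1 (0.0498). At 44 h against 12 h 2 were called (6.43%), without UHRF1 (0.187) and UHRF2 (0.384) and with TET3 (0.0413), and at 44 h against 28 h 1 was called (4.32%).

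Of the recomputed member fold changes, 985 kept their direction and their side of the threshold, 25 came to pass it, 30 no longer did, and 34 changed sign. All 34 were in results that were not called. Leaving out a library moved the log2 fold change of DNMT1 at 28 h against 0 h between -0.023 and 0.10, and that of TET1 between -0.24 and 0.30. DNMT3A moved between -0.10 and 0.051 at 28 h against 12 h, between -0.0065 and 0.15 at 44 h against 28 h and between -0.014 and 0.14 at 28 h against 0 h. UHRF1 moved between -0.036 and 0.087 at 28 h against 12 h, and UHRF2 between -0.021 and 0.038 at 12 h against 0 h. TET2 moved between -0.033 and 0.0053 at 28 h against 12 h and between -0.0016 and 0.040 at 44 h against 12 h. TDG moved between -1.41 and 0.38 at 12 h against 0 h, between -0.17 and 1.68 at 28 h against 12 h, between -1.03 and 0.13 at 44 h against 28 h, between -0.71 and 0.33 at 44 h against 0 h, between -0.51 and 0.98 at 28 h against 0 h and between -0.50 and 1.03 at 44 h against 12 h. Under other settings, DNMT3A at 28 h against 12 h was -0.0039 with library sizes without DNMT1 and -0.00071 in limma-voom, and at 44 h against 28 h -0.0021 with the replicate block. UHRF2 at 12 h against 0 h was -0.023 with library totals alone and -0.049 with the block, and TET2 at 28 h against 12 h 0.00036 and 0.0054. TDG was 0.079 at 12 h against 0 h with the block and 0.30 at 44 h against 12 h in limma-voom; it was not tested in fits of only 2 times.

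Counts of 2 to 21 and their spread within a time limit TDG, and the spread within a time limits TET1. Levels are shares of a library with no added standard RNA named in the labels.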
